A study of Mus musculus with 10 samples.

Results

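Sycp3, Mael, Dazl, Dppa2, Dppa3, Dppa4, Dppa5a, Tcl1, Fbxo15 and L1td1 are active in mouse embryonic stem (ES) cells and otherwise largely restricted to germ cells or the early embryo, and their levels were followed through treatment with EBIO. The list was set by name, with earlier results of these data known, and every probe set annotated to 1 of them alone was taken. All 10 genes were measured, by 12 of the 45037 probe sets that were not array controls and among 18193 named genes. Dazl and Dppa2 had 2 probe sets each and the other genes 1.

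RNA was measured on 10 Affymetrix arrays, all from CGR8, a feeder-independent mouse ES cell line of strain SV129. EBIO is a small molecule used to open calcium-activated potassium channels. ES cells had been given 1 mM EBIO for 3 days (n = 3) or left untreated (n = 3), with passages 25, 26 and 27 in both groups. Differentiated cells had been aggregated for 5 days as embryoid bodies and then cultured for 10 days with EBIO (n = 2, no dose given in the labels) or without it (n = 2). The design text calls the arrays of a group independent experiments. Every group came from a single cell line.

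Germ line genes are kept off in most somatic cells by DNA methylation of their promoters and by repressor complexes that include E2F6, MGA with its partner MAX, PCGF6 and the histone methyltransferases G9a and SETDB1. ES cells resemble the cells of the early embryo, in which promoter methylation is low, and express a subset of these genes together with factors such as Oct4 (gene Pou5f1) and Nanog. Several of the genes described here, among them Dppa2, Dppa3, Dppa4, Dppa5a and Fbxo15, are widely used as markers of the pluripotent state.

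RefSeq promoter windows were at hand for Sycp3, Mael, Dazl, Tcl1 and L1td1. The windows of Sycp3, Mael and Tcl1 are printed as examples that differ in CpG and motif content. These genes fell to around or below the array median with EBIO. Dazl also read around or below the median with EBIO, after smaller changes, and its window is described without being printed. Each sequence is the 250 bases before the transcription start, 5′ to 3′ on the gene's strand, from RefSeq on build GRCm38.p6. Sycp3 is at chr10:88459337-88459586 (+), Mael at chr1:166238745-166238994 (−) and Tcl1 at chr12:105222738-105222987 (−). Capitals mark CACGTG, the E-box bound by MGA with MAX, and TCCCGC or its reverse complement GCGGGA, the core of the E2F6 site.
Sycp3: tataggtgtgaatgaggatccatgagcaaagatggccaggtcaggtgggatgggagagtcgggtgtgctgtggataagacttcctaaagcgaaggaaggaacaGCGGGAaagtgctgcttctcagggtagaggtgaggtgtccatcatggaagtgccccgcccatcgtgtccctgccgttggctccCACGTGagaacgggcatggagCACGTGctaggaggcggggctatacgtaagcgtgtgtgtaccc
Mael: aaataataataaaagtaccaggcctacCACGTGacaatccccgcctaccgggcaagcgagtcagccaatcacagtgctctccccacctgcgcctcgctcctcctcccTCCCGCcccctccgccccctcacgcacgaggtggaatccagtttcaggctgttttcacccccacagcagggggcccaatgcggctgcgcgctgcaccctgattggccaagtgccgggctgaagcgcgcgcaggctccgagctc
Tcl1: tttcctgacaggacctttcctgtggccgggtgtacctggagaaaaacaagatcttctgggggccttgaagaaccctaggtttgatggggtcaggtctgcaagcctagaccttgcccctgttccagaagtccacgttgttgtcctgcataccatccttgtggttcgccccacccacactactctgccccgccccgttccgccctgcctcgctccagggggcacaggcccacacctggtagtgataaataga

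The Sycp3 window held 2 copies of CACGTG, starting 64 and 43 bases upstream of the start, and 1 GCGGGA starting 147 bases upstream. The Mael window held 1 CACGTG, starting 223 bases upstream, and 1 TCCCGC starting 143 bases upstream. Neither motif was found in the windows of Tcl1, Dazl and L1td1, on either strand, and no copies overlapped. Of 32841 RefSeq windows of the same length, 6.02% held CACGTG, 0.429% held at least 2 copies of it, 16.9% held TCCCGC or GCGGGA, and 1.45% held both motifs.

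CpG dinucleotides numbered 20 in the Dazl window, 18 in Mael, 12 in Sycp3, 11 in L1td1 and 7 in Tcl1, against a median of 6 over all windows. Dazl, the richest of the 5, had more CpG than 82.0% of all windows, and Tcl1 had more than 53.7%. The ratio of observed to expected CpG was 0.71 for Dazl, 0.75 for Mael, 0.639 for Sycp3, 0.566 for L1td1 and 0.343 for Tcl1, and its median over all windows was 0.374. DNA methylation itself was not measured in these samples.

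**Figure D1:**
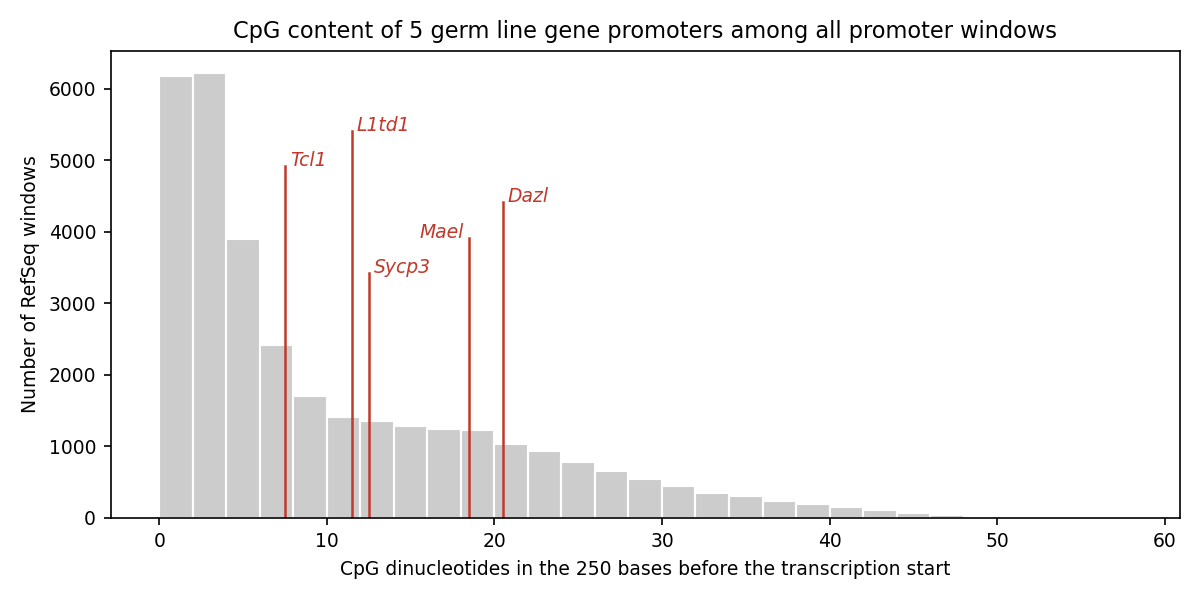
Number of RefSeq windows (vertical axis) by the count of CpG dinucleotides in the 250 bases before the transcription start (horizontal axis), for all 32841 windows in grey. Red lines mark 5 of the genes, from Tcl1 with 7 CpG to Dazl with 20; the heights of the lines carry no value.

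The array values are on a log2 scale on which 1 unit is a factor of 2, and they were comparable within the 6 ES arrays and within the 4 differentiated arrays but not between these sets. Sorted values of any 2 arrays differed on average by 0.0931 or less among ES arrays and by 0.0497 or less among differentiated arrays, but by 0.910 or more across the sets. Levels at the 2 stages were therefore set side by side only as percentiles within each array, without a test. As a check of the labels, all 5 ES cell markers (Pou5f1, Nanog, Sox2, Zfp42 and Esrrb) exceeded the median of every ES array in both groups. Their summed linear level was 3150 to 3690 with EBIO and 14100 to 15900 without. On the differentiated arrays, whose values cannot be set against those of the ES arrays, it was 207 to 264 with EBIO and 332 to 433 without.

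With EBIO, all 12 probe sets were lower in ES cells on each of the 3 treated arrays than on any of the 3 untreated arrays. In the limma fit over 23184 probe sets, 11 of the 12 were bright enough to be tested; all 11 fell, and none rose. Over all probe sets tested, 17.6% fell, 21.8% rose, and 23.7% had all EBIO arrays below all untreated arrays. The probe sets of Sycp3, Mael, Tcl1, Fbxo15 and Dazl (1449502_at) passed the brightness filter only because of the untreated arrays, so the count of 11 is a description. Over all 12 probe sets the median change was -2.96, and it was -2.95 with values below the array median set to that median. The measured changes ranged from -6.12 to -0.62, where the median over all probe sets tested was -0.02. Changes of at least 8-fold were called for 6 of the genes (Fbxo15, Sycp3, Tcl1, L1td1, Dppa5a and Dppa3), a size reached by 0.595% of all probe sets tested. Fbxo15, Sycp3 and Tcl1 passed the filter only through the untreated arrays, so the count of 6 is a description as well. These are bulk RNA samples, in which fewer expressing cells and less RNA per cell cannot be told apart.

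**Figure D2:**
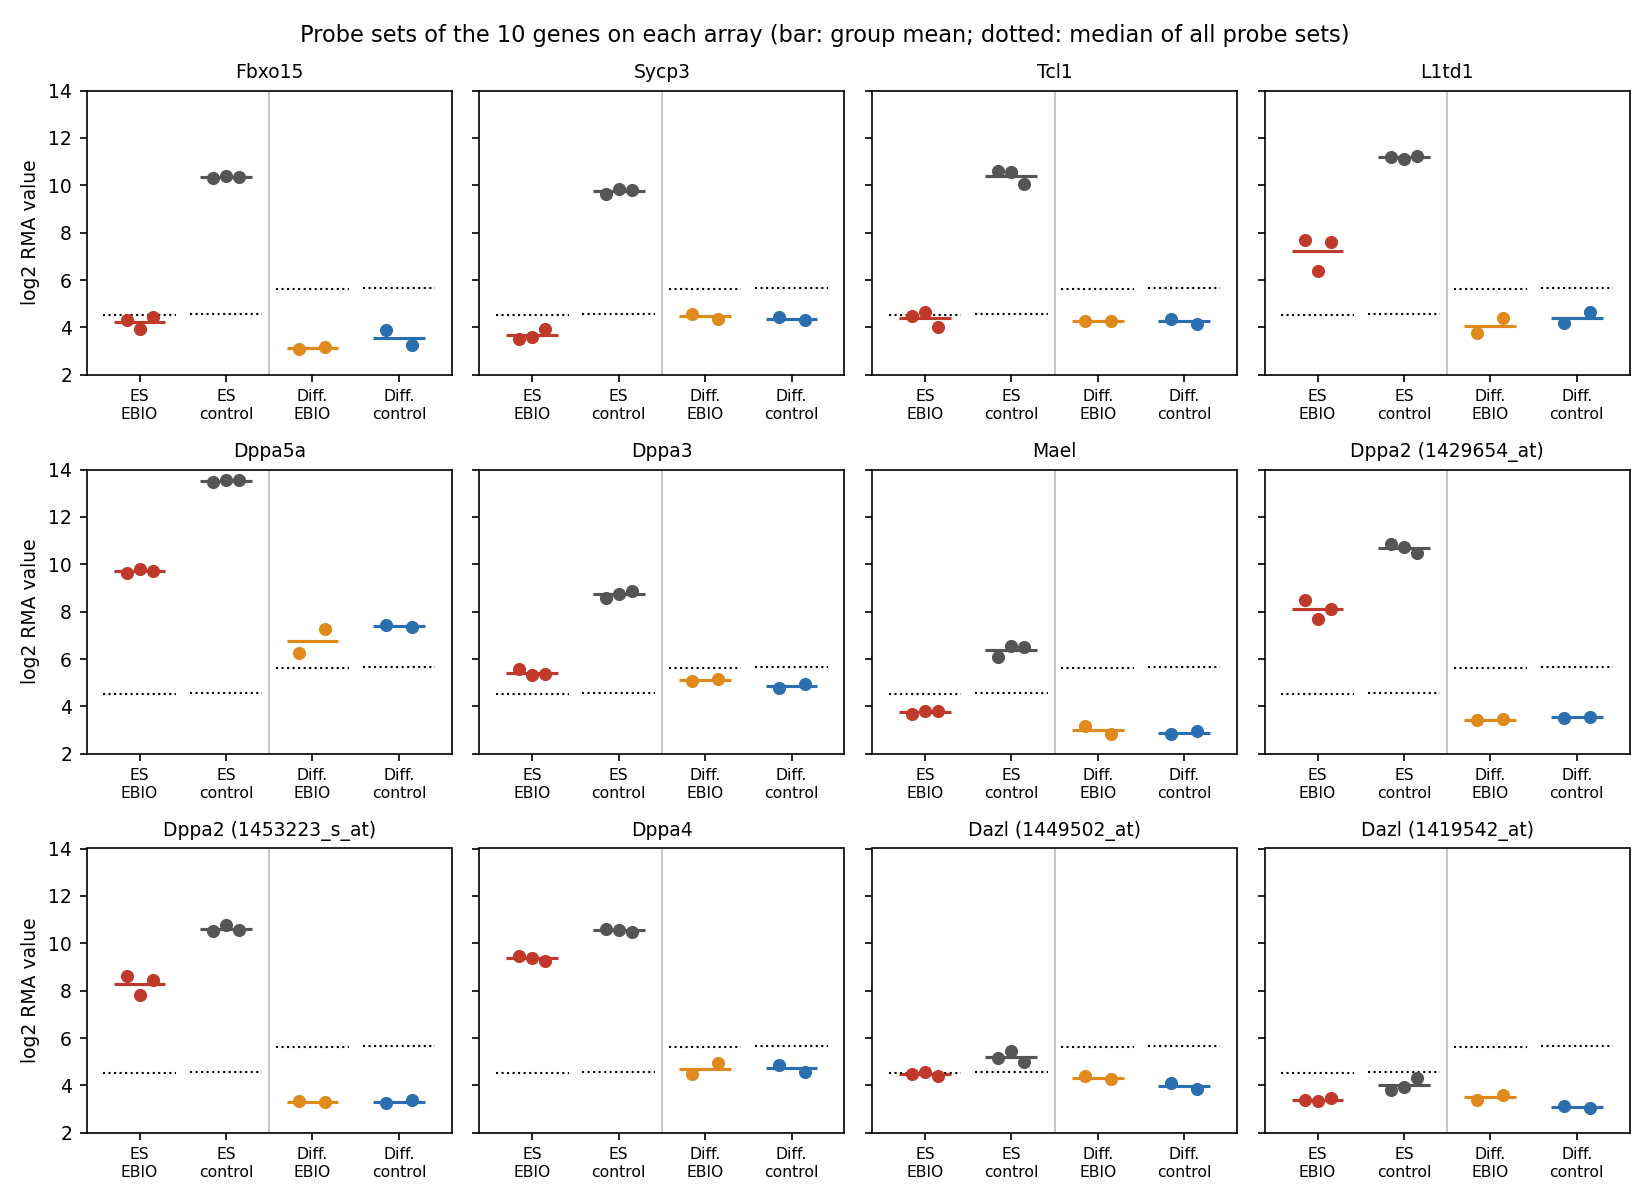
log2 RMA value (vertical axis) of the 12 probe sets on each of the 10 arrays, by group (horizontal axis), with a point per array, a bar for the group mean and a dotted line for the median of all probe sets. In each of the 12 panels the 3 ES EBIO points lie below the 3 ES control points, while the differentiated groups are low for all but Dppa5a; levels are not comparable across the vertical grey line.

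Sycp3, a structural protein of the axial elements that organise chromosomes in meiosis, was among the most changed. Its log2 values were 3.49, 3.58 and 3.95 in ES cells with EBIO, against 9.65, 9.83 and 9.81 in untreated ES cells. The treated arrays lay at the 14.2 to 33.1 percentile of their arrays and the untreated ones at the 95.1 to 95.6 percentile. The change was -6.09 (SE 0.151, limma adjusted p = 3.1e-07, n = 3 each). Since a value below the array median has no reliable size, the fall is given as at least 37.4-fold, with treated arrays below their median set to it.

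Mael, which encodes Maelstrom, a protein of the piRNA pathway that silences transposons in germ cells, fell below the array median. It measured 3.70, 3.82 and 3.80 with EBIO, against 6.10, 6.53 and 6.52 without. Mael thus stood at the 22.4 to 28.1 percentile of the treated arrays and at the 72.8 to 75.8 percentile of the untreated arrays. The change was -2.61 (SE 0.15, limma adjusted p = 9.19e-06), a fall of at least 3.6-fold by the same bound.

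Dazl, an RNA-binding protein needed for germ cell development, had the smallest changes and read near or below the array median. Probe set 1449502_at read 4.49, 4.56 and 4.38 with EBIO, against 5.17, 5.43 and 4.98 without, a change of -0.72 (SE 0.147, limma adjusted p = 0.00495). Of its treated arrays 2 were below the array median, and with those set to the median the fall was at least 1.57-fold. Probe set 1419542_at read 3.38, 3.34 and 3.48 with EBIO, against 3.80, 3.95 and 4.30 without, below the array median on all 6 arrays, and was not tested. Without the brightness filter its change of -0.62 had a limma adjusted p of 0.0188.

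Dppa3, also called Stella, protects methylated DNA of the maternal genome from demethylation in the zygote. It read 5.58, 5.33 and 5.37 in ES cells with EBIO, against 8.59, 8.74 and 8.86 in untreated ES cells. The groups were 3.01 to 3.49 apart when treated and untreated arrays of the same passage were set against each other. The change was -3.31 (SE 0.133, limma adjusted p = 2.16e-06), which left 10.1% of the untreated level on the linear scale. All 3 treated arrays stayed above the array median, at the 64.1 to 67.1 percentile.

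Dppa2 and Dppa4 are paralogues with a DNA-binding SAP domain that act as a pair on chromatin and keep some developmental promoters from becoming methylated. Dppa2 (1429654_at) read 8.49, 7.70 and 8.10 with EBIO, against 10.87, 10.72 and 10.46 without, a change of -2.59 (SE 0.211, limma adjusted p = 4.68e-05). Its second probe set (1453223_s_at) read 8.62, 7.81 and 8.45 with EBIO, against 10.51, 10.77 and 10.55 without, a change of -2.32 (SE 0.21, limma adjusted p = 8.04e-05). Both probe sets therefore gave a fall of similar size, to 16.7% and 20.1% of the untreated level.
Dppa4 read 9.46, 9.39 and 9.25 with EBIO, against 10.61, 10.55 and 10.47 without. Its change of -1.18 (SE 0.121, limma adjusted p = 0.000147) left 44.2% of the untreated level, and its 95% interval of -1.46 to -0.90 did not meet that of either Dppa2 probe set (-3.07 to -2.10 and -2.80 to -1.84). The difference between the paralogues was not itself tested.

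Dppa5a, an RNA-binding protein with a KH domain, read near the top of the scale. It read 9.64, 9.82 and 9.73 with EBIO, against 13.47, 13.56 and 13.57 without, on arrays whose highest values were 13.92 to 13.94. The fall of 3.80 (SE 0.117, limma adjusted p = 7.06e-07) was 13.9-fold as measured. The deposited values carry no saturation flag, and whether the untreated signal was saturated, which would make this fold too small, was not tested.

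L1td1, an RNA-binding protein derived from the LINE-1 retrotransposon, varied most among the treated arrays. It read 7.69, 6.38 and 7.60 with EBIO, against 11.18, 11.10 and 11.26 without. The second treated array was the low one, as it was for both Dppa2 probe sets, Dppa3, Fbxo15 and Dazl 1419542_at. It was the highest treated array for Tcl1, Dppa5a, Mael and Dazl 1449502_at. The change of L1td1 was -3.95 (SE 0.316, limma adjusted p = 4.29e-05), or 15.5-fold lower. Without that array it was -3.53, with a limma adjusted p of 3.23e-05.

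Tcl1, a coactivator of the kinase AKT, read 4.47, 4.63 and 4.03 in ES cells with EBIO, against 10.61, 10.55 and 10.06 in untreated ES cells. Its change of -6.03 (SE 0.206, limma adjusted p = 1.12e-06) corresponds to at least 56.9-fold. Fbxo15, an F-box protein whose promoter has served as a reporter of pluripotency, read 4.31, 3.95 and 4.45 with EBIO, against 10.31, 10.40 and 10.36 without. Its change was -6.12 (SE 0.151, limma adjusted p = 3.1e-07), at least 56.6-fold. Since the treated values of Fbxo15, Sycp3 and Tcl1 lay mostly below the array median, the order of these falls is not resolved.

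**Figure D3:**
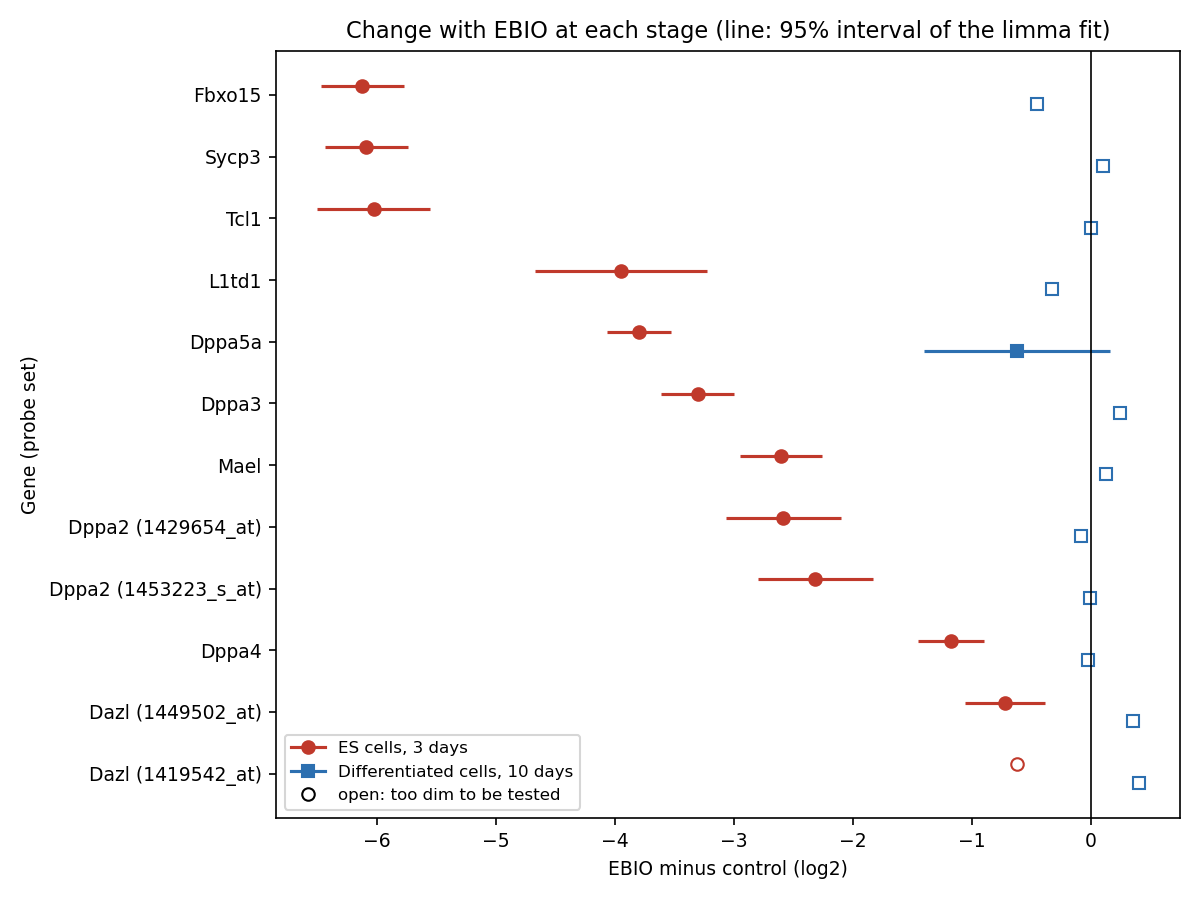
EBIO minus control on the log2 scale (horizontal axis) for each probe set (vertical axis), with red circles for ES cells, blue squares for differentiated cells, and lines for the 95% interval of the limma fit. Open symbols were too dim to be tested. The red circles run from -6.12 for Fbxo15 to -0.62 for Dazl, and the blue squares lie between -0.62 and 0.40.

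In differentiated cells the same genes were mostly dim in both groups. Of the 12 probe sets, 11 lay below the array median on all 4 differentiated arrays, so only Dppa5a was tested. Dppa5a read 6.26 and 7.28 in differentiated cells with EBIO, against 7.42 and 7.37 in differentiated cells without it. The change was -0.62 (SE 0.313, 95% interval -1.40 to 0.16, limma adjusted p = 0.136, n = 2 each) and was not called, in a fit in which 27.5% of 23689 probe sets fell, 33.6% rose and 61.1% were called in all. The result turned on the second EBIO array. Without it the change was -1.13 with a limma adjusted p of 0.00142, but that fit holds 1 EBIO array, which is assumed to vary like the untreated pair. Without the first EBIO array the change was -0.11.

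For the 12 probe sets as a whole, the change in differentiated cells ranged from -0.62 to 0.40 with a median of -0.00, where the median over all probe sets tested was 0.06. All EBIO arrays were lower for 3 probe sets, all were higher for 3, and the groups overlapped for 6. Over all probe sets tested, 36.6% had both EBIO arrays below both untreated arrays and 45.6% had both above. Without the brightness filter 1 probe set was called. This was Dazl 1419542_at, at 3.40 and 3.59 with EBIO against 3.14 and 3.05 without (change 0.40, limma adjusted p = 0.0299). The other Dazl probe set read 4.40 and 4.26 with EBIO against 4.08 and 3.86 without (change 0.36, limma adjusted p = 0.0569 without the filter).

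None of the other genes was called at this stage with or without the filter. Sycp3 read 4.56 and 4.36 with EBIO against 4.43 and 4.29 without, and Mael 3.18 and 2.84 against 2.81 and 2.97. Tcl1 read 4.26 on both EBIO arrays against 4.37 and 4.15 without. These 3 genes overlapped between the groups. L1td1 read 3.78 and 4.38 with EBIO against 4.17 and 4.64 without, and Dppa4 4.47 and 4.93 against 4.87 and 4.59. Dppa2 read 3.43 and 3.46 with EBIO against 3.52 and 3.55 without on 1429654_at, and 3.32 and 3.30 against 3.24 and 3.40 on 1453223_s_at. The EBIO arrays were the lower ones for Fbxo15, at 3.07 and 3.16 against 3.90 and 3.24, and the higher ones for Dppa3, at 5.09 and 5.15 against 4.80 and 4.96. At such levels a fall like that in ES cells could not have been measured.

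Percentiles within each array allowed the 4 groups to be set side by side. In EBIO-treated ES cells 10 of the 12 probe sets stood above every differentiated array, and in untreated ES cells all 12 did. The share of all probe sets that did so was not computed, so these counts are a description. The 2 exceptions were Sycp3, at 14.2 to 33.1 in treated ES cells and 28.9 to 33.2 on the differentiated arrays, and Dazl 1419542_at, at 9.0 to 14.5 and 6.7 to 16.1. The median over the probe sets of the mean percentile was 56.8 in ES cells with EBIO and 97.1 in ES cells without, and 26.5 in differentiated cells with EBIO and 26.2 without.

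Each percentile was read against the same probe set in the other groups, since levels of different probe sets cannot be compared. Dppa4 stood at 93.4 to 94.4 in ES cells with EBIO and 97.3 to 97.7 without, and at 31.5 to 39.8 in differentiated cells. The percentile changes little near the top of an array, where the same values were a fall to 44.2% of the untreated level. L1td1 stood at 74.1 to 84.1 with EBIO and 98.4 to 98.6 without, above every differentiated array. Fbxo15 stood at 32.9 to 48.0 in ES cells with EBIO and at 97.0 to 97.1 without, against 6.1 to 22.6 in differentiated cells.

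**Figure D4:**
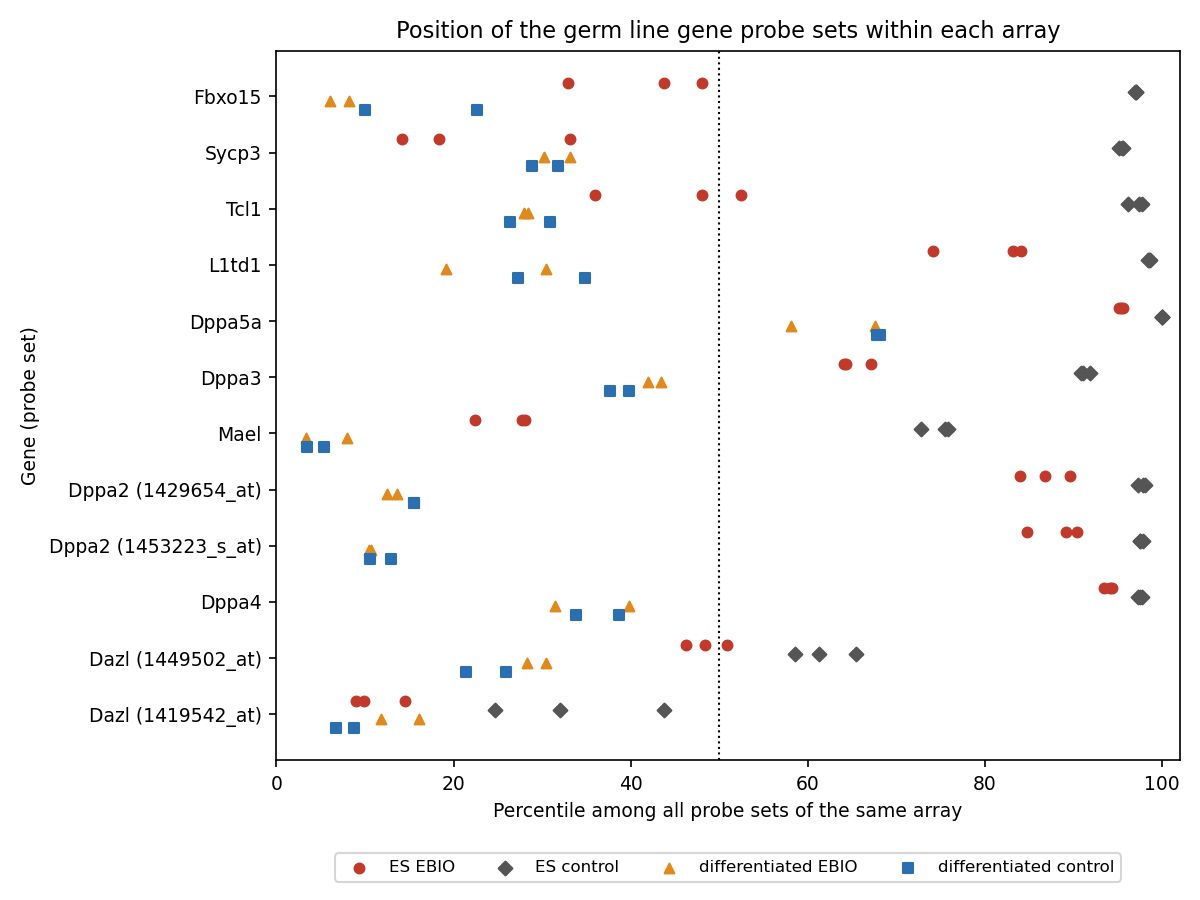
Percentile of each probe set among all probe sets of the same array (horizontal axis), per gene (vertical axis), with a point per array coloured by group and the array median dotted. Dppa4 and Dppa5a stay above 93 in treated ES cells, while for Sycp3 the treated ES arrays reach from 14.2 to 33.1, below and into its differentiated range of 28.9 to 33.2.

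The EBIO effects of the 2 stages could be set against each other for Dppa5a alone, which was bright enough to be tested at both. Its difference, differentiated minus ES, was 3.18 (SE 0.325, limma adjusted p = 2.3e-05), in a fit in which 18.6% of 27491 probe sets were called in that direction. Dppa5a averaged 7.39 in untreated differentiated cells, on arrays with medians of 5.595 to 5.682. A change of -3.80, as in ES cells, would have ended below the array median there and could not have been measured in full. The lower starting level thus limited how large a fall could have been measured in differentiated cells. Dppa5a stayed above the array median on both differentiated EBIO arrays, and the difference is a description. For the other genes the differentiated values lay below the array median, so a smaller fall there could not be told from a level too low to measure.

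Related gene lists in ES cells showed how far other genes moved with these. Of 50 measured genes of meiosis and the piRNA pathway, 31 probe sets were tested, of which 14 (45.2%) fell and 1 rose (3 rose with passage as a block), with a median change of -0.39, beside 17.6% that fell and 21.8% that rose over all probe sets tested. Of the 14 that fell, 5 exceeded the array median on no EBIO array and so passed the filter through the untreated arrays. Others exceeded it on only 1 or 2 EBIO arrays and also needed untreated arrays to pass, so the count of 14 is a description. Tdrd12, a Tudor protein of piRNA production, fell to 4.04 ± 0.07 with EBIO, against 7.37 ± 0.60 without (SD, n = 3 each; limma adjusted p = 4.29e-05), at least 7.12-fold. Rnf17 fell by at least 3.63-fold, Tex19.1 changed by -1.86, and Tdrd7 rose (1.27). Mov10 fell on 1 of its probe sets (-2.35) and not on the other (-0.15, limma adjusted p = 0.668). Ddx4, the germ cell helicase Vasa, averaged 5.50 ± 0.19 with EBIO and 5.93 ± 1.01 without and was not called (limma adjusted p = 0.484).
Among 29 measured genes of primordial germ cells and oocytes, 13 of 24 probe sets (54.2%) fell and 0 rose, beside the same 17.6% and 21.8%. The median change was -1.26, and 3 of the 13 were above the array median on no EBIO array. Alpl was above it on only 1, so the count of 13 is a description. Ifitm1 changed by -5.93, Ifitm3 by -5.66 and Ooep by -5.49, and Alpl fell by at least 10.3-fold. Ifitm1 and Ifitm3 encode interferon-inducible membrane proteins, Ooep an oocyte protein and Alpl an alkaline phosphatase used to stain ES and germ cells.

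The list of other ES-restricted genes fell most widely: 46 of its 54 tested probe sets (85.2%) fell and 0 rose, beside 17.6% and 21.8% of all probe sets tested. The median change was -2.59, beside -0.02 over all probe sets tested, and 8 of the 46 were above the array median on no EBIO array. Tdgf1 was above it on only 1, so the count of 46 is a description. Tdgf1, a co-receptor for Nodal, fell by at least 139-fold, the nuclear receptor Nr0b1 by at least 73.7-fold and the growth factor Fgf4 by at least 34.4-fold, with treated arrays below their median set to it. The transcription factor Klf2 changed by -4.58. The pluripotency factors Pou5f1 (-4.20), Nanog (-3.56) and Zfp42 (-3.23) fell too. Over the same arrays the summed linear level of 4 smooth muscle markers was 6460 to 7640 with EBIO and 183 to 481 without. For 5 extraembryonic endoderm markers it was 2820 to 3560 with EBIO and 774 to 1220 without. What part these cell types have in the falls was not tested. The germ cell list of 4 measured markers, which includes Dazl, summed to 89.6 to 109 with EBIO and 119 to 192 without, and 1 of its genes exceeded the median on all treated arrays.

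**Figure D5:**
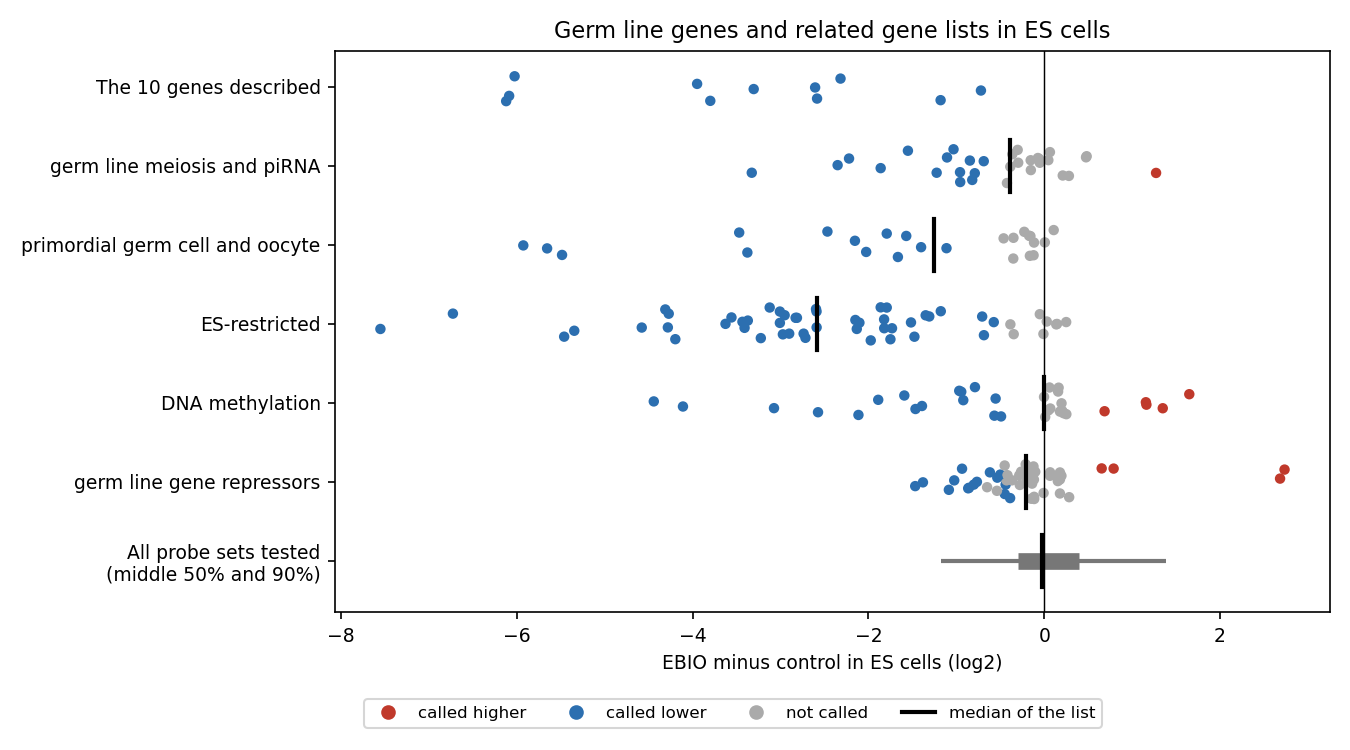
EBIO minus control in ES cells on the log2 scale (horizontal axis) for each tested probe set of the germ line genes and of 5 related lists (vertical axis), red where called higher, blue where called lower and grey where not called; black bars are list medians and the lowest row shows the spread over all probe sets tested. ES-restricted genes have a median of -2.59, and the DNA methylation and repressor lists have medians of -0.00 and -0.21.

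The list of DNA methylation genes moved in both directions, with more falls than rises. Of 33 tested probe sets, 16 (48.5%) fell and 5 (15.2%) rose, beside 17.6% and 21.8% of all probe sets tested. The median change was -0.00, and 2 of the 16 were above the array median on no EBIO array, so the count of 16 is a description. Dnmt1, the maintenance methyltransferase, was not called on any of its 3 probe sets (changes of 0.21, 0.25 and 0.22; limma adjusted p = 0.42, 0.209 and 0.234). Dnmt3b, a de novo methyltransferase, was not called either (0.20 and 0.16; limma adjusted p = 0.621 and 0.747). Its relative Dnmt3a fell (-1.89 on the probe set with the largest change), as did the cofactor Dnmt3l (-0.49, limma adjusted p = 0.0225) and Uhrf1, which brings Dnmt1 to newly copied DNA (-0.79 and -0.97).
Tet1, which oxidises methylated cytosine, fell to 6.11 ± 0.46 with EBIO, against 10.6 ± 0.18 without (limma adjusted p = 5.79e-06), and Tet2 changed by -2.57 on the probe set with the larger change. The methyl-CpG binding protein Mbd2 rose on both probe sets (1.65 and 1.16), and the Uhrf1 relative Uhrf2 rose on the 1 tested (1.35). Mbd1 rose on 2 probe sets (1.16 and 0.69) and not on another (0.01, limma adjusted p = 0.964).

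Of the repressors of germ line genes, 16 of 51 tested probe sets (31.4%) fell and 4 (7.84%) rose, beside 17.6% and 21.8% of all probe sets tested, with a median of -0.21. Leaving out the first or the second EBIO array gave 10 of 52 that fell, beside 12.9% and 14.1% of all probe sets in the same fits. The subunits moved in both directions. Pcgf6 fell on 2 probe sets (-0.62 and -0.86) and not on another (0.07, limma adjusted p = 0.725). By their largest probe set L3mbtl2 fell by 1.09 and the G9a gene Ehmt2 by 1.02, while the PRC1 subunit Yaf2 rose (2.74). E2f6 rose on 1 probe set (0.79, limma adjusted p = 0.00138) and not on the other (0.16, limma adjusted p = 0.475). Mga was called on 1 probe set (-0.87, limma adjusted p = 0.0153) and not on another (-0.54, limma adjusted p = 0.107). Max had a change of -0.01 (limma adjusted p = 0.982), and Setdb1 changes of -0.18 and 0.14, neither called.
In differentiated cells 19 of 45 probe sets of the repressor list (42.2%) rose and 2 (4.44%) fell. Over all probe sets tested at that stage, 33.6% rose and 27.5% fell. Leaving out 1 array leaves 1 array in a group. Whether the share of the list that rose lay above or below that of all probe sets depended on the array left out. The share that fell stayed below that of all probe sets in each such fit. By their largest probe set E2f6 (0.71), Ring1 (0.91) and Atf7ip (1.02) were among those that rose, and Hdac1 (-0.56) and Max (-0.40) were those that fell. On those arrays cardiomyocyte markers summed to 50400 to 51700 with EBIO and 3280 to 3620 without, fibroblast markers to 3450 to 3700 with EBIO and 46800 to 47800 without, and macrophage markers to 121 to 127 with EBIO and 11600 to 13700 without. What part this shift in cell types has in these changes was not tested.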

How the data were processed

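RNA of 10 samples was hybridised to 1-colour Affymetrix arrays. The deposited values are log2 expression values that the authors made with RMA, per the submitters' processing notes; a label names BioConductor, and its version is not given in the sources used here. Because RMA corrects background, equalises the arrays of a set and summarises probes, differences from dim probe sets are understated. Replicate number, not depth, limits the precision of arrays.

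Of 45101 probe sets, 64 controls were left out. In the platform annotation 34958 probe sets had 1 symbol, 932 several and 9211 none, and 34754 of the first kind matched a RefSeq table (GRCm38.p6). A probe set was tested where it exceeded the array median on a number of arrays no smaller than the smallest group, by limma 3.58.1 in R 4.3.3. Each comparison was fitted on its own arrays and the difference between effects on all 4 groups, with Benjamini-Hochberg adjustment over all probe sets tested and a threshold of 0.05 for a call. The code was tested on simulated data. A bound on a fold sets treated arrays below their median to that median. All probe sets of the 10 genes are given. From each list, the named genes are up to 4 called probe sets with the largest change in each direction whose groups did not overlap, plus a set of named regulators. Genes and lists were chosen with earlier results of these data known.

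Passage paired the ES arrays: same-numbered arrays deviated together from their group means (r = 0.35, 0.224 and 0.636 over probe sets). Differently numbered arrays gave -0.523 to 0.251, the highest for EBIO array 2 with untreated array 1, so the values alone do not match passages 25 and 26; the pairing rests also on the passage labels. Same-numbered differentiated arrays did not deviate together (r = -0.113). Alternatives were other filters, other summaries per gene, a joint fit, a trended prior, quantile normalization of all 10 arrays, the replicate block, and leaving out each array.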

Additional observations from a re-analysis of the deposited data

Results flagged for a closer look

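The EBIO effect on Dppa5a differed between the stages by the limma contrast of differentiated minus ES effects. The difference was 3.177 on the log2 scale (SE 0.325, limma adjusted p = 2.3e-05), and it ranged from 2.666 to 3.688 when 1 array at a time was left out. In ES cells all 3 EBIO arrays were lower than the untreated arrays, with a change of -3.80, and in differentiated cells both were lower, with a change of -0.62. Dppa5a was the only one of the 10 genes bright enough to be tested at both stages. It started lower in differentiated cells, at 7.39 on arrays with medians of 5.595 to 5.682. A change as large as that in ES cells could not have been measured there in full, so the difference is a description.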

How the results depend on the processing

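All 11 calls of the germ line genes in ES cells held under each alternative in which the probe set was tested; the highest limma adjusted p was 0.0219, for Dazl. In differentiated cells 1 of the 12 probe sets was called higher with no filter, and 0 to 1 were called lower when 1 array at a time was left out. Over all probe sets, taking 1 probe set a gene gave 2846 higher and 2567 lower in ES cells and 4111 and 4023 in differentiated cells, against 5063 and 4091, and 7949 and 6517, in the fits reported. Averaging each gene's probe sets gave 2699 and 2477 in ES cells and 4034 and 3564 in differentiated cells. A filter at the 75th percentile gave 5031 higher and 3844 lower in differentiated cells, and the joint fit of 4 groups 5045 higher there. Fewer features were tested with 1 value a gene and with the stricter filter; for the joint fit the cause was not tested. With the replicate block, which pairs ES arrays by passage, 6090 probe sets were higher and 5136 lower in ES cells, and the calls of the germ line genes did not change. With crossed pairing, added after seeing the data, 7842 were higher and 6430 lower in differentiated cells. Ring1 in ES cells and Tdrd7 and Utf1 in differentiated cells lost their calls under several alternatives.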

Other observations

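Genes beside the 10 genes on the chromosome, in RefSeq order on GRCm38.p6, were examined after their values were seen. Of 42 tested probe sets of 34 neighbouring genes other than the 10, 12 fell and 9 rose with EBIO in ES cells, which is 28.6% and 21.4%, against 17.6% and 21.8% of all probe sets tested. Several of those that fell, Morc1 and Ddx43 among them, exceeded the array median on only 0 or 2 EBIO arrays. They passed the filter only with the untreated arrays, so the count of 12 is a description. Dppa2 and Dppa4 lie beside Morc1, a germ cell protein that represses transposons. Morc1 averaged 3.89 ± 0.23 with EBIO and 9.73 ± 0.13 without (SD, n = 3 each), a fall of at least 36.7-fold with treated arrays set to their median (limma adjusted p = 3.1e-07). Dppa3 lies between Gdf3, a TGF-beta family ligand, and Nanog. Gdf3 changed by -4.31 (limma adjusted p = 8.06e-07), while the glucose transporter gene Slc2a3 on the same stretch rose on 4 probe sets, by 0.76 to 1.36.

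Dppa5a neighbours Ooep (-5.49) and Ddx43, which encodes a DEAD-box helicase (at least 2.2-fold lower, limma adjusted p = 0.000441). Tcl1 neighbours its relatives Tcl1b3 and Tcl1b4, which did not pass the test. Tcl1b3 averaged 9.40 ± 0.11 with EBIO and 9.75 ± 0.13 without (limma adjusted p = 0.0615), on a probe set of the type that may also bind related genes. Tcl1b4 averaged 5.77 ± 0.11 with EBIO and 5.95 ± 0.24 without (limma adjusted p = 0.42). Tcl1 itself fell by at least 56.9-fold.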
